A study of Homo sapiens with 3 samples.

Results

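The genes described here are 53 genes of DNA damage signalling and repair, chosen by name for their known function, of 61193 genes in all. No measured value entered the rule, but earlier results of these data were known when the genes were chosen. They comprised 9 checkpoint kinases and break signalling genes, 15 genes of homologous recombination, 6 of crosslink repair, 6 of end joining, 3 of mismatch repair, 7 of nucleotide excision repair and 7 of base excision repair with the poly(ADP-ribose) polymerases (PARPs). RNA was sequenced from 3 replicates of HEK293T cells, a line derived from human embryonic kidney that carries the large T antigen of simian virus 40. The replicates formed 1 group, and no DNA-damaging agent is named in the labels, so no comparison between conditions and no statistical test was made. The sample labels list the molecule as genomic DNA, whereas their protocols describe total RNA and 3′-end mRNA libraries. The study mapped i-motifs (iMs), structures folded by C-rich DNA, and G-quadruplexes (G4s), folded by the G-rich opposite strand, and used these RNA data to sort genes by expression.

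Cells sense DNA breaks and stalled replication forks through the kinases ATM, ATR and DNA-PK, which phosphorylate downstream proteins, halt the cell cycle and bring repair factors to the lesion. Double-strand breaks are then rejoined directly by end joining or copied from the sister chromatid by homologous recombination. Crosslinks between strands need the Fanconi anaemia proteins, mismatches and damaged bases have excision pathways of their own, and PARP1 marks strand breaks with chains of ADP-ribose. Large T antigen binds the p53 protein, a main effector of the damage response, and this limits HEK293T cells as a model of that response.

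The libraries held 6262175 to 8521624 counts, of which the mitochondrial genome took 9.59%, 5.70% and 25.8% in replicates 1, 2 and 3. Replicate 3 therefore stood apart, and because TPM (counts divided by transcript length and scaled to a total of 1000000) are shares, nuclear genes as a whole were lower there. The repair genes together held 27966, 25141 and 25100 counts, or 0.398%, 0.401% and 0.295% of each library. Of 7 markers of the line, CDH2 (25.4 ± 4.43 TPM), PAX2 (8.96 ± 3.24 TPM) and KRT8 (1.35 ± 0.433 TPM) were expressed (SD, n = 3). VIM had 0, 6 and 5 counts, and KRT18, NEFL and NEFM were listed at 0. Of 8 markers of other cell types, the fibroblast genes COL1A1 (24.8 ± 0.330 TPM) and COL3A1 (1.68 ± 0.935 TPM) were expressed, DES had 3 to 6 counts, and the other 5 had at most 3 counts in every replicate. PTPRC, CD3E and ALB, which define blood and liver cells, were listed at 0. Counts were made per transcript, and reads from an end that several transcripts share may not be counted. No part of the final 300 bases of the canonical mRNA lies in a single listed transcript for VIM, NEFM, CD3E and DES. The same held for PAX2 and COL3A1, which were expressed. The share was 2.00% for KRT18, 24.0% for ALB, 64.3% for PTPRC and 100% for NEFL. Its part in these counts was not tested.

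Putative iM- and G4-forming sequences near the start sites were searched because they are the structures the study maps. A sequence had 4 tracts of at least 3 Cs joined by loops of 0 to 7 bases, so a run of 6 Cs counts as 2 tracts. It was searched on both strands within 1 kb of the canonical transcription start site (TSS), where a C-rich match on one strand is a G-rich match on the other. The lines show, for the 6 most expressed repair genes with a printable match, the match nearest the TSS, 5′ to 3′ on the C-rich strand, with the C tracts in capitals. Those of PARP1 (chr1:226407706-226407731, plus strand), FANCA (chr16:89816400-89816419, plus strand), FANCI (chr15:89244074-89244097, minus strand) and MRE11 (chr11:94493569-94493592, plus strand) lie in introns, 362, 228, 95 and 252 bases downstream of the TSS. Those of RNF168 (chr3:196503870-196503884, plus strand) and FANCC (chr9:95317771-95317791, minus strand) lie 102 and 62 bases upstream. Coordinates are on GRCh38 (hg38). In FANCC the C-rich strand is the strand of the gene, and in the other 5 it is the opposite strand.
PARP1: CCCgggCCCgctcgctCCCtgggCCC
FANCA: CCCaCCCCgcacagCCCCCC
RNF168: CCCgCCCtCCCtCCC
FANCI: CCCaggggCCCagtCCCacagCCC
FANCC: CCCgCCCCgCCCCacggaCCC
MRE11: CCCgccaggaCCCCtCCCCtgCCC

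PARP1 was the most abundant RNA of the set, at 9.44 times the mean TPM of the next gene, and 33 of the 53 genes (62.3%) were expressed, that is, had a mean of at least 1 TPM over the replicates, against 38.2% of 19926 protein-coding genes. Levels in the top quartile of all 13296 expressed genes (24.1 TPM or more), called high here, were found for 11 (20.8%), against 12.5% of protein-coding genes. A further 15 were medium and 7 low, at or below the first quartile of 2.40 TPM. No count in any replicate was recorded for 9 (17.0%, against 36.5%), and 16 (30.2%, against 50.9%) had at most 3 counts in every replicate, the number that a count of 0 allows. Such a floor covers counting error only and came to 0.352 to 0.479 CPM (counts scaled to a library of 1000000). The median over the 53 genes was 2.03 ± 0.587 TPM (SD, n = 3), against 0.195 ± 0.0136 TPM over protein-coding genes, while among the expressed genes of each set the medians were 11.3 and 10.5 TPM. The difference in median thus lay in how many genes were expressed rather than in the level of those that were.

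**Figure D1:**
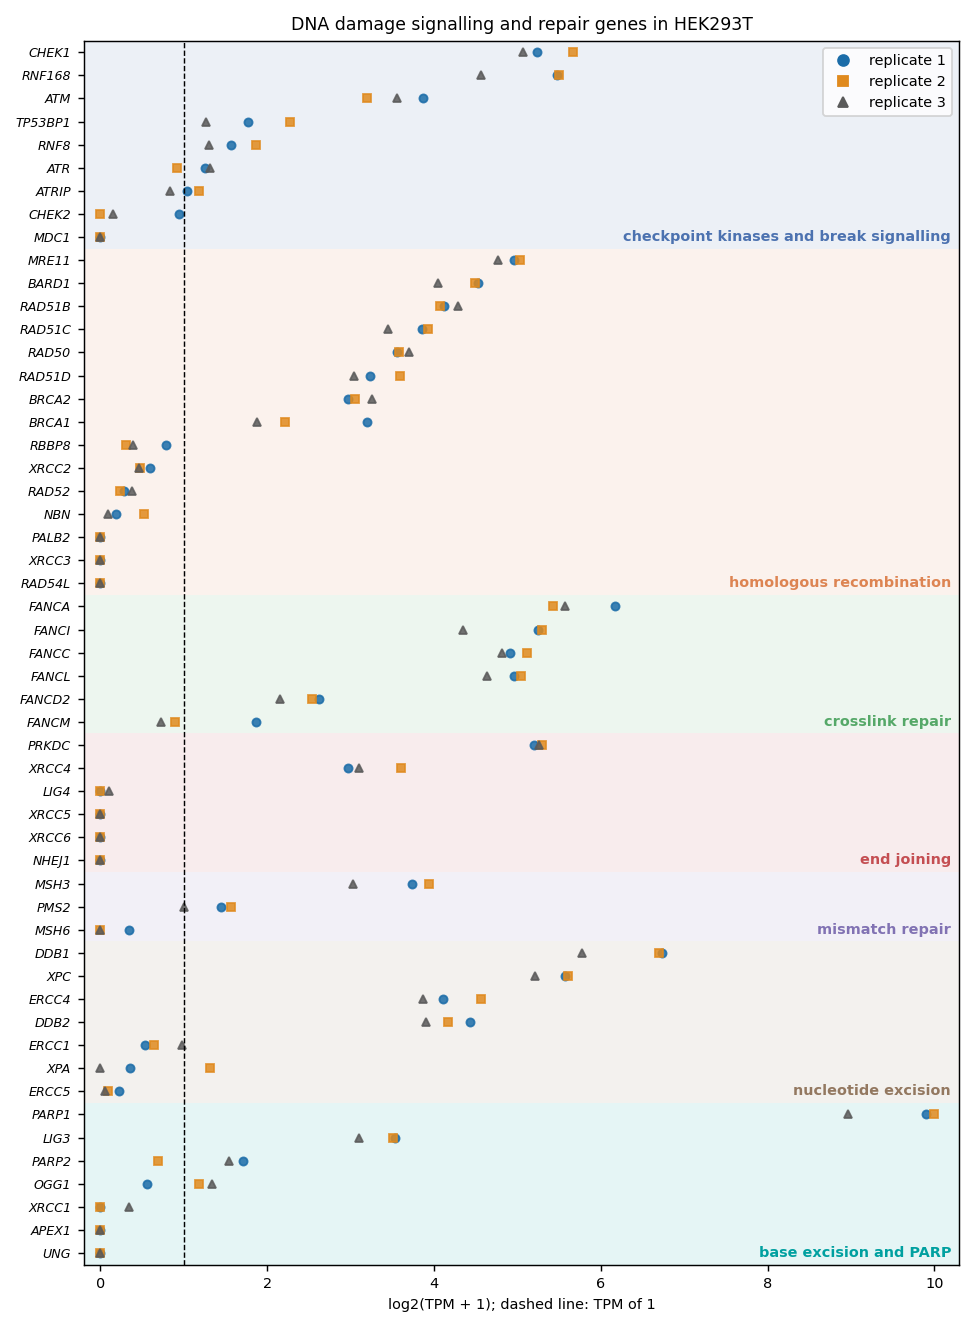
Level of each of the 53 repair genes in the 3 replicates, as log2(TPM + 1) on the horizontal axis, with genes grouped by pathway and ordered by mean level; 1 marker is 1 replicate and the dashed line is a TPM of 1. PARP1 stands alone at 498 to 1022 TPM, all 6 crosslink repair genes have means right of the line, and 4 of the 6 end joining genes lie at or near 0.

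The summed level of the set was 1610, 1672 and 974 TPM in replicates 1, 2 and 3, or 1419 ± 386 TPM (SD, n = 3). PARP1 alone made up 57.2% ± 5.36 of it, and the other genes summed to 594 ± 101 TPM. In the order of mean TPM, the second gene was DDB1, and the ranges of PARP1 and DDB1 over the replicates did not overlap. Among the 32 pairs of neighbours in the order of the 33 expressed genes, only 3 had ranges that did not overlap: PARP1 with DDB1, FANCL with BARD1, and RAD51B with RAD51C. Within each replicate the order held in all 3 for 6 of the 32 pairs, which besides those 3 were DDB1 over FANCA, RNF168 over FANCI and FANCD2 over TP53BP1. Other neighbours changed order in at least 1 replicate. On GRCh38 the 4 highest genes lie on the minus strand, PARP1 at chr1:226360210-226408154, DDB1 at chr11:61299451-61342596, FANCA at chr16:89726683-89816977 and XPC at chr3:14145147-14178621, and each value is a sum over the transcripts listed for the gene.

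Of the 9 checkpoint kinases and break signalling genes, 7 were expressed (77.8%, against 38.2% of protein-coding genes), 2 of them highly (22.2%, against 12.5%). CHEK1, the kinase that acts below ATR at stalled forks, was at 36.7, 49.6 and 32.4 TPM (39.6 ± 8.96 TPM). RNF168, a ubiquitin ligase that modifies histones beside a break, was at 43.6, 44.2 and 22.6 TPM (36.8 ± 12.3 TPM). The replicates of CHEK1 all lay above the high threshold, whereas RNF168 was below 24.1 TPM in replicate 3. By quartiles taken within each replicate, both genes were high in every replicate. ATM, the kinase activated by double-strand breaks, was medium at 13.6, 8.18 and 10.8 TPM (10.9 ± 2.73 TPM). The canonical transcript of ATM was not listed, so this level rests on other transcripts. ATR, the kinase of stalled forks, was at 1.38, 0.883 and 1.49 TPM from 40, 14 and 44 counts, and its partner ATRIP, which brings it to single-stranded DNA, at 1.06, 1.26 and 0.778 TPM from 18, 19 and 20 counts. The levels of these partners overlapped, and each was near the threshold of expression. TP53BP1, which favours end joining at breaks, and RNF8, the ligase upstream of RNF168, lay between 1.40 and 3.83 TPM over all replicates. CHEK2, the kinase below ATM, had 3, 0 and 1 counts, and MDC1, an adaptor that binds phosphorylated histone H2AX, was listed at 0.

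Homologous recombination had 8 of 15 genes expressed (53.3%, against 38.2% of protein-coding genes) and a single one in the high category (6.67%, against 12.5%). MRE11, a nuclease that starts the trimming of broken ends, was at 30.2, 31.7 and 26.3 TPM (29.4 ± 2.80 TPM). RAD50, which bridges the ends in the same complex, was at 10.8, 11.0 and 12 TPM, and NBN, the third subunit, had 3, 1 and 2 counts. All 3 replicates of MRE11 exceeded all 3 of RAD50. BARD1 was at 22.0, 21.5 and 15.5 TPM (19.6 ± 3.62 TPM), and its ubiquitin ligase partner BRCA1 at 8.18, 3.63 and 2.68 TPM from only 23, 9 and 12 counts. BRCA2, a mediator of strand exchange, was at 6.80, 7.31 and 8.57 TPM (7.56 ± 0.909 TPM), while PALB2, which links BRCA1 to BRCA2, was listed at 0. BRCA2 was one of the genes lowest in replicate 1 rather than in replicate 3.

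RAD51B, RAD51C, RAD51D, XRCC2 and XRCC3, subunits of complexes that assist strand exchange, were at medium levels where they were expressed. RAD51B was at 16.4, 15.8 and 18.6 TPM, RAD51C at 13.5, 14.2 and 9.89 TPM, and RAD51D at 8.41, 11.1 and 7.24 TPM. XRCC2 had 11, 7 and 12 counts (0.423 ± 0.0739 TPM), below the threshold of expression, and XRCC3 was listed at 0. RAD51B thus exceeded the other 4 genes in every replicate on the TPM scale. Of the remaining genes, RAD52, a mediator of strand annealing, had 3, 2 and 6 counts, RBBP8, which promotes end resection, had 2, 3 and 2 counts, and RAD54L, a motor protein of strand exchange, was listed at 0.

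All 6 crosslink repair genes were expressed (100%, against 38.2% of protein-coding genes). The share that was high, 4 genes (66.7%, against 12.5%), was the largest of any group. Of these 4, FANCC, FANCI and FANCL had no count on the canonical transcript, and FANCA had 54.8% of its counts on it. By CPM, FANCA, FANCC, FANCI and FANCL ranked 13th, 15th, 19th and 23rd in the set, against 3rd, 9th, 8th and 11th by TPM. FANCA, a subunit of the Fanconi anaemia core ligase, was at 71.0, 42.1 and 46.5 TPM (53.2 ± 15.5 TPM). FANCC, another core subunit, was at 29.0, 33.6 and 27.1 TPM, and FANCL, the catalytic subunit, at 30, 32 and 23.9 TPM. FANCA was highest in replicate 1 and lowest in replicate 2, unlike most genes of the set. FANCI, a member of the pair that the core ligase modifies, was at 37.0, 38.4 and 19.3 TPM (31.5 ± 10.6 TPM), and its partner FANCD2 at 5.15, 4.81 and 3.44 TPM (4.47 ± 0.902 TPM). FANCM, a translocase that recognises stalled forks, had 11, 3 and 4 counts, a mean of 1.38 TPM that passed the threshold in replicate 1 alone.

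End joining had 2 of 6 genes expressed, the smallest share of any group (33.3%) but near the 38.2% of protein-coding genes. PRKDC, the catalytic subunit of DNA-PK, was at 35.8, 38.1 and 37.4 TPM (37.1 ± 1.19 TPM), with a coefficient of variation (CV) of 3.19%, the lowest among the expressed genes of the set. The subunits that place it on DNA ends, XRCC5 (Ku80) and XRCC6 (Ku70), were both listed at 0 in every replicate. XRCC4, the scaffold of the end joining ligase, was at 6.84, 11.2 and 7.60 TPM, whereas the ligase itself, LIG4, had 0, 0 and 2 counts and NHEJ1, its further partner, was listed at 0. The Ku subunits are needed by cultured human cells in general, and a listed 0 is therefore given here only as what the tables hold. In mismatch repair, MSH3, which recognises larger loops, was at 12.3, 14.4 and 7.15 TPM (11.3 ± 3.75 TPM). MSH6, which recognises single mismatches, had 1, 0 and 0 counts. PMS2, a subunit of the complex that cuts the mismatched strand, was at 1.73, 1.95 and 1.00 TPM, and because the genome holds near-identical pseudogenes of PMS2 its counts are uncertain.

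Nucleotide excision repair had 4 of 7 genes expressed (57.1%, against 38.2% of protein-coding genes), 2 of them highly (28.6%, against 12.5%). These 4 were all lowest in replicate 3, as were 69.0% of expressed protein-coding genes, but only 1 of them was once mitochondrial transcripts were left out. DDB1, an adaptor of the ultraviolet damage sensor, was at 105, 103 and 53.7 TPM (87.4 ± 29.3 TPM), and its partner DDB2 at 20.5, 16.9 and 14.0 TPM (17.1 ± 3.26 TPM). XPC, the sensor of distorted helices, was at 46.4, 47.6 and 36.1 TPM (43.4 ± 6.29 TPM). Every replicate of DDB1 lay above every replicate of the other 6 genes of the group. ERCC4, the catalytic subunit of the nuclease that cuts on the 5′ side of the lesion, was at 16.3, 22.7 and 13.6 TPM (17.5 ± 4.66 TPM), whereas its obligate partner ERCC1 had 2, 2 and 6 counts. ERCC5, the nuclease on the other side, had 3, 1 and 1 counts, and XPA, which checks the lesion, had 2, 4 and 0 counts.

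In base excision repair, PARP1 was at 956, 1022 and 498 TPM (825 ± 285 TPM) from 16915, 15395 and 12845 counts, above 99.6% of protein-coding genes. LIG3, the ligase that seals the repaired strand, was at 10.6, 10.4 and 7.56 TPM (9.52 ± 1.71 TPM), and its scaffold XRCC1 had 0, 0 and 1 counts. PARP1 was lowest in replicate 3, where the mitochondrial share was highest. PARP2, the related polymerase, and OGG1, which removes oxidised guanine, had means of 1.60 and 1.09 TPM from at most 18 counts in a replicate. UNG, which removes uracil, and APEX1, the main endonuclease at the sites left by such enzymes, were listed at 0.

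Of a list of 82 other repair genes, 41 (50%, against 38.2% of protein-coding genes) were expressed and 14 (17.1%, against 12.5%) were high. No count was recorded for 15 (18.3%, against 36.5%), and the median of the list was 1.06 ± 0.0509 TPM. The highest were CETN2, a partner of XPC, at 466 ± 110.4 TPM, the thymine glycosylase TDG at 165 ± 53.5 TPM, the replication protein RPA3 at 139.6 ± 5.44 TPM, the ligase scaffold CUL4A at 86.7 ± 18.3 TPM and the Fanconi core gene FANCE at 80.4 ± 10.8 TPM (SD, n = 3). PARP1 exceeded each of them on the TPM scale.

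The scale mattered for the order of the genes. A 3′-end library draws its reads from near the end of an RNA whatever its length, so division by length in TPM lowers long transcripts. By CPM, PRKDC (311 ± 37.5 CPM) was second after PARP1 (2125 ± 536 CPM) and ahead of DDB1 (227 ± 60.2 CPM). BRCA2, counted on a transcript of 11986 bases, was 9th by CPM (62.3 ± 15.7 CPM) and 23rd by TPM. FANCI and FANCL moved the other way, from 8th and 11th by TPM to 19th and 23rd by CPM. The first of these was counted mainly on a transcript of 526 bases, FANCI-217 (77.9% of its counts), and the second on a transcript of 522 bases, FANCL-210 (72.6%).

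**Figure D2:**
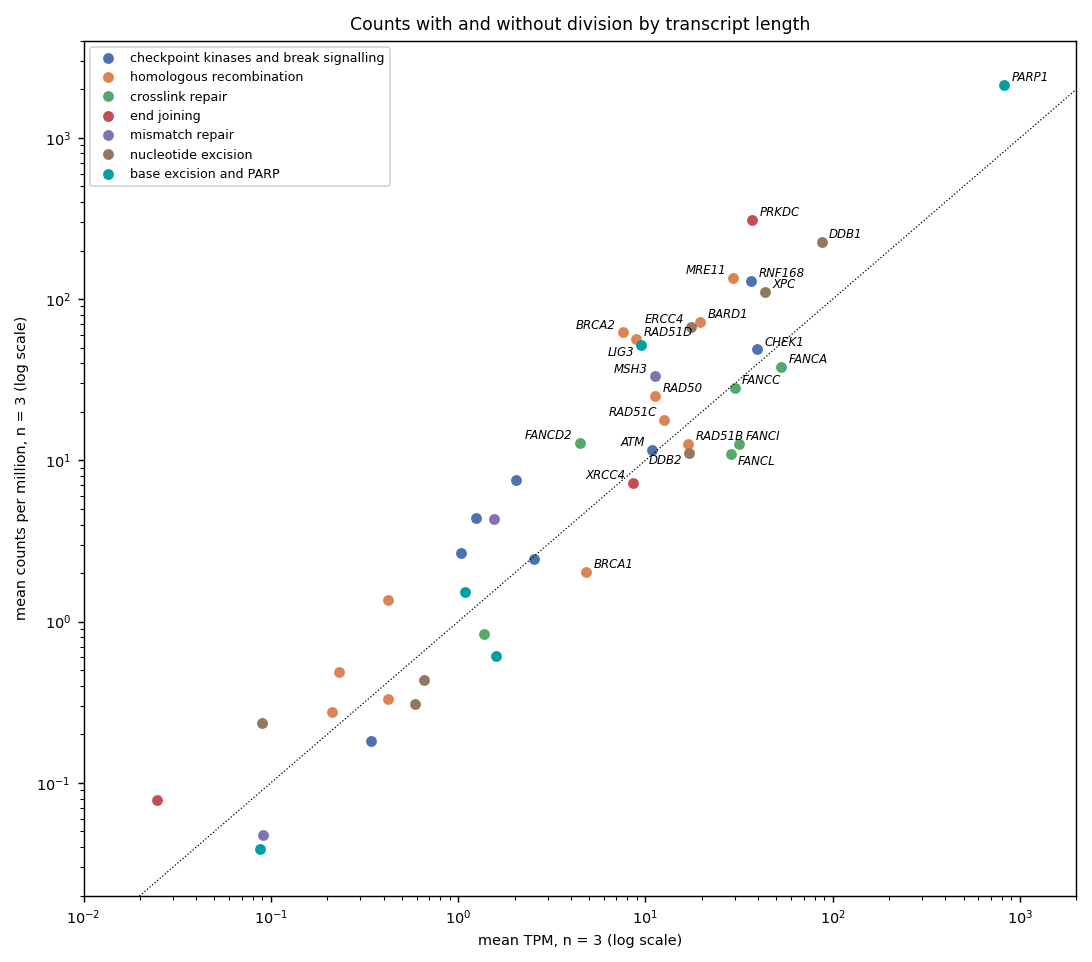
Mean CPM (vertical axis, log scale) against mean TPM (horizontal axis, log scale) over 3 replicates for the repair genes with a count; colours mark the pathway and the dotted line marks equal values. PRKDC, at 311 CPM and 37.1 TPM, lies well above the line, as does BRCA2, while FANCI, FANCL and BRCA1 lie below it.

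Partners within a complex were compared through the ratio of their levels in each replicate. Of 24 pairs in 13 complexes, 8 had both partners expressed. The log2 ratio of TPM was 1.38 ± 0.22 for MRE11 over RAD50, -2.17 ± 0.65 for BRCA1 over BARD1 and 2.30 ± 0.34 for DDB1 over DDB2 (SD, n = 3). These 3 pairs kept their order in every replicate on both scales, with ranges that did not overlap, and the CPM ratios were larger still (2.43 ± 0.13, -5.26 ± 0.60 and 4.33 ± 0.46). For BRCA1 and DDB2 no count was on the canonical transcript, against 99.9% of counts for BARD1 and 94.0% for DDB1, so these ratios compare unlike classes of transcript. FANCD2 was below FANCI by TPM in every replicate (-2.78 ± 0.26), but not by CPM (0.04 ± 0.34). RAD51B over RAD51C (0.45 ± 0.41), RAD51B over RAD51D (0.94 ± 0.43) and RAD51C over RAD51D (0.50 ± 0.17) also turned by CPM, to -0.50 ± 0.38, -2.16 ± 0.41 and -1.66 ± 0.20. No order of these 3 genes can therefore be stated free of the scale. ATR over ATRIP was 0.27 ± 0.73, higher in 2 of 3 replicates, which did not exceed the spread. FANCI, RAD51B, ATR and ATRIP also had no count on the canonical transcript, against 87.0% of counts for RAD51C and 99.3% for RAD51D. The canonical transcript of FANCD2 was not listed.

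**Figure D3:**
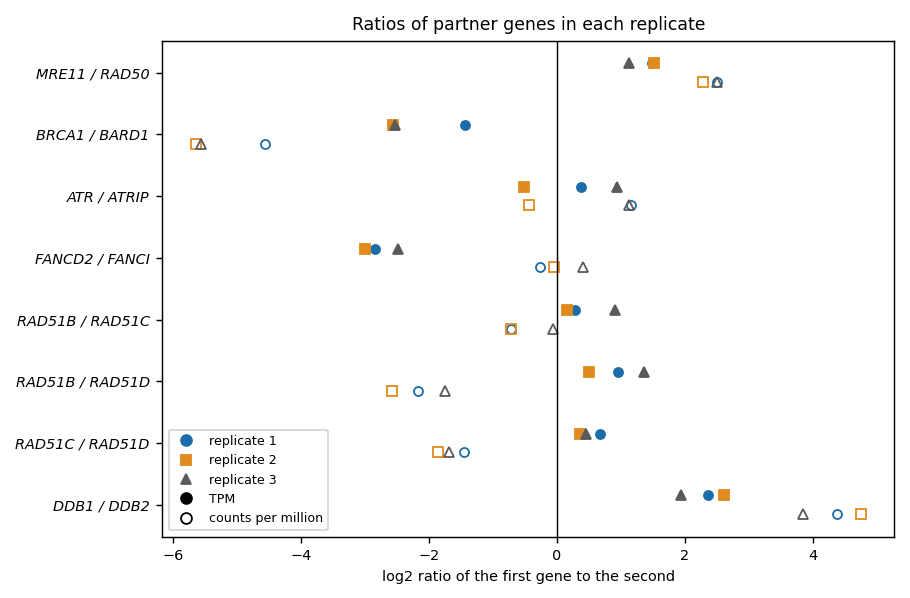
Log2 ratio of the levels of partner genes in each replicate for the 8 pairs with both partners expressed, by TPM (filled) and by CPM (open), with 0 as equal levels. MRE11 over RAD50 and DDB1 over DDB2 stay above 0 and BRCA1 over BARD1 below 0 on both scales, whereas the pairs among RAD51B, RAD51C and RAD51D change side.

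The counts were made per transcript, and many transcripts of a gene share their 3′ end. For each gene, the final 300 bases of the canonical mRNA were therefore described by whether a single listed transcript holds them. Of the 51 repair genes whose canonical transcript was listed, 14 had the whole end in a single transcript, 9 a part and 28 none. Of 19351 such protein-coding genes, 7600 had the whole end in a single transcript, 3911 a part and 7840 none. The median of the mean counts was 250.5 in the first class, 204 in the second and 4 in the third. Over protein-coding genes the medians were 23.8, 1.00 and 0.333 in the same order, so the repair genes followed the order seen across the annotation. In the class with none, 12 of 28 genes had at most 3 counts in every replicate (42.9%, against 62.8% of protein-coding genes), among them XRCC5, XRCC6, APEX1, UNG, PALB2, XRCC3 and RAD54L, which were all listed at 0. The class with none also held NBN, LIG4, MSH6 and ERCC1, which had few counts beside the expressed partners MRE11, XRCC4, MSH3 and ERCC4. For XRCC1, partner of LIG3, 0.333% of the end lies in a single transcript. Of these expressed partners, MRE11, ERCC4 and LIG3 have the whole end in a single transcript, MSH3 has 40.7% and XRCC4 none. MDC1 and NHEJ1 were listed at 0 although their whole end lies in a single transcript. The part of shared ends in any single value was not tested.

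**Figure D4:**
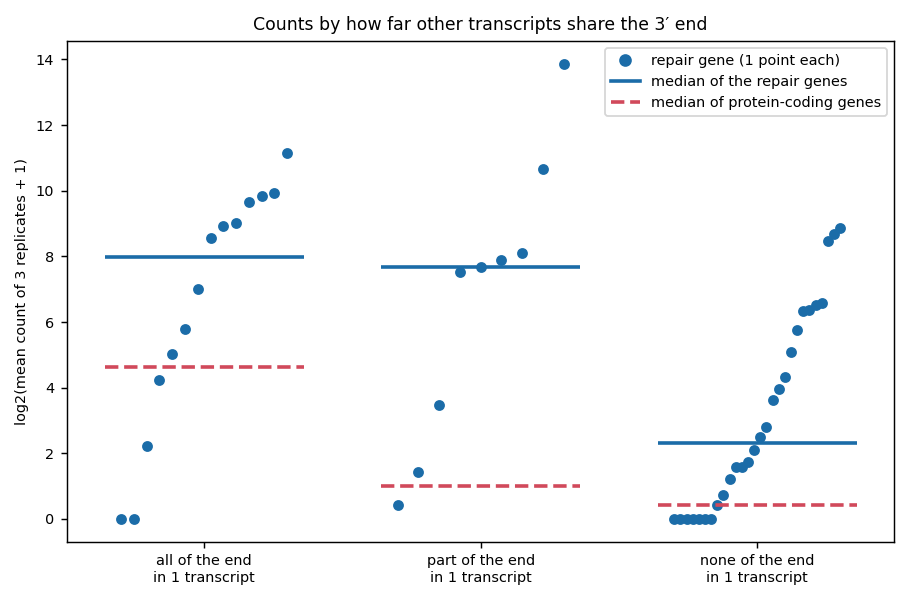
Mean counts over 3 replicates, as log2(mean count + 1) on the vertical axis, by whether the final 300 bases of the canonical mRNA lie wholly, partly or not at all in a single listed transcript; points are repair genes, solid lines their medians and dashed lines the medians of protein-coding genes. The solid lines stand for counts of 250.5 (14 genes), 204 (9 genes) and 4 (28 genes) in that order.

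Where the counts of a gene fell also differed. Of 35 repair genes above the floor with a listed canonical transcript, 16 had at least 90% of their counts on it, among them PARP1, PRKDC, DDB1, XPC, MRE11, RNF168, BARD1 and BRCA2. A further 4 (TP53BP1, RAD51C, RAD50 and FANCA) lay between, and 15 had no count on it, so that their level rests on other transcripts. The same shares were not computed over all protein-coding genes, so whether repair genes differ from them in this cannot be said. The most counted transcript of these 15 was annotated as protein coding for 6, as a retained intron for 5, as lacking a defined coding sequence for 3 and as a target of nonsense-mediated decay for 1. It ended upstream of the canonical end in 11. CHEK1 had 99.7% of its counts on CHEK1-203, a coding transcript that ends downstream. XRCC4 had 90.5% on XRCC4-206, which lacks a defined coding sequence. BRCA1 had 54.5% on BRCA1-210, a retained intron of 561 bases, and DDB2 had 76.9% on DDB2-207, also a retained intron. The counted reads of BRCA1 and DDB2 thus lay on non-canonical transcripts, and the canonical mRNA of either gene had no count. No part of either canonical end lies in a single listed transcript, so reads from it may not have been counted. Which RNA the cells held was therefore not tested. The ends of LIG3, TP53BP1, NHEJ1 and RAD54L are covered by exons of other genes on the other strand, and the strand setting of the counting is not given in the sources used here.

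The spread between replicates of the expressed repair genes was set beside that of other genes. Their median CV of TPM was 25.2%, against 27.0% for expressed protein-coding genes, and 31 of 33 (93.9%, against 88.1%) had a CV above the one that counting error alone gives (median 8.83%), which between separate cultures is the usual outcome. The lowest replicate was the third for 23 of 33 (69.7%, against 69.0%). With mitochondrial transcripts left out of the total, the median CV was 16.5% (against 19.1%), and the lowest replicate was the third for 7 (21.2%, against 38.0%). Replicate 3 was thus the lowest for most genes on the deposited TPM scale, and for a minority on the rescaled one.

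On that scale and among the 23 repair genes that had 50 counts or more in each replicate, replicate 3 differed from the mean of the other replicates by a median log2 of 0.11, with 17 higher and 6 lower. Over 4678 protein-coding genes the median was -0.03, with 2182 higher and 2496 lower, and a range from the 5th to the 95th percentile of -0.66 to 0.74. BRCA2 had the highest difference, at 8.81, 8.64 and 15.4 rescaled TPM (log2 difference of 0.82), followed by RAD51B (0.74), RAD50 (0.67) and PRKDC (0.55). The lowest was PARP1, at 1238, 1208 and 893 rescaled TPM (-0.45), then FANCI (-0.43), RNF168 (-0.42) and DDB1 (-0.42). Only BRCA2 and, at its very edge, RAD51B lay outside that range of protein-coding genes, and replicates 1 and 2 differed from each other by a median absolute log2 of 0.11 against 0.24 for replicate 3 (0.12 against 0.26 over protein-coding genes).

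**Figure D5:**
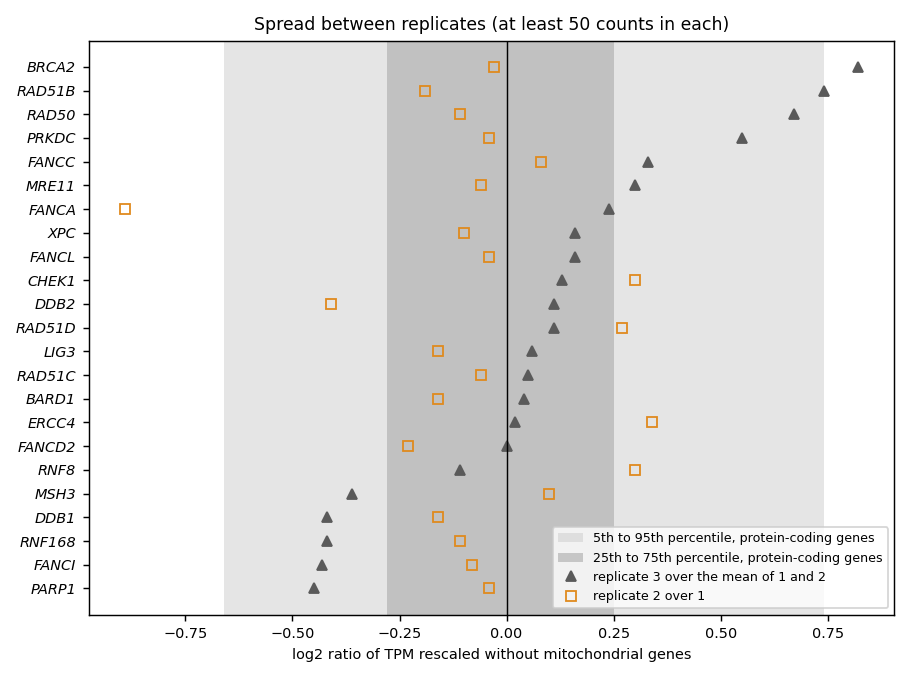
Spread between replicates of the repair genes that had 50 counts or more in each replicate, as log2 ratios of TPM rescaled without mitochondrial transcripts; triangles are replicate 3 over the mean of the others, squares replicate 2 over replicate 1, and shading the percentiles of protein-coding genes for replicate 3. The triangles run from -0.45 (PARP1) to 0.82 (BRCA2), and 17 of 23 genes lie above 0.

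Near the start sites, 36 of the 53 genes (67.9%) held a putative iM- or G4-forming sequence within 1 kb of the TSS, against 71.3% of 19913 protein-coding promoters. They held 75 sequences of 12 to 38 bases, 35 upstream, 39 downstream and 1 across the TSS, at a median of 336 bases from it, and 20 genes had more than 1. Of the expressed repair genes 18 of 33 (54.5%) held such a sequence and of the others 18 of 20 (90%), whereas among all promoters the share was 78.5% for expressed and 66.8% for other genes. DDB1, XPC and CHEK1 had none. In the narrower window from 250 bases before to 50 after the TSS, 11 genes (20.8%, against 36%) had one, and the shares were 7 of 33 (21.2%) for expressed and 4 of 20 (20.0%) for other repair genes, against 39.9% and 33.5% of all promoters. Within 1 kb, loops of 0 to 12 bases gave 81.8% and 95.0%, against 90.8% and 78.8% of expressed and other promoters. With 5 tracts the shares were 21.2% and 60.0%, against 54.0% and 45.3%. Tracts of at least 2 bases gave 100% for both. That rule matched 99.5% of all promoters, so it cannot set the repair genes apart. The contrast between expressed and other repair genes thus varied with the rule and the window. GC content within 250 bases of the TSS had a median of 64.1% (45.7% to 75.6%), against 64.7%. A match describes letters and not a folded structure, and the iM and G4 maps of the study were not analysed here.

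Head-to-head neighbours were frequent in the set. The TSS of a gene on the opposite strand, transcribed away, lay within 1 kb upstream for 21 of 53 (39.6%), against 18.5% of protein-coding genes and 25.2% of expressed ones, at a median of 219 bases. Of these neighbours 15 were protein coding and 5 were long non-coding RNAs, and both genes of the pair were expressed in 9. Levels within a pair were often far apart. XPC (43.4 TPM) lies 216 bases from LSM3, a splicing factor gene at 644 ± 132 TPM, and DDB1 (87.4 TPM) lies 123 bases from TKFC, a kinase gene at 3.78 ± 0.842 TPM. ATM (10.9 TPM) faces NPAT, an activator of histone genes, at 429 bases and 23.9 ± 6.07 TPM, and XRCC4 (8.54 TPM) faces TMEM167A at 153 bases and 55.8 ± 14.3 TPM. In the pairs named so far the neighbour was the higher gene except beside DDB1. Among the other pairs with both genes expressed, the repair gene had the higher mean TPM for FANCL, FANCD2, MRE11 and BRCA1, and the neighbour for ATRIP. MRE11 (29.4 TPM) faces ANKRD49 (140 bases, 3.26 ± 2.36 TPM from 5, 13 and 7 counts). BRCA1 (4.83 TPM) faces NBR2 (187 bases, 1.49 ± 0.645 TPM from 12, 4 and 16 counts). PRKDC (37.1 TPM) faces MCM4, a subunit of the replicative helicase, at 805 bases and 0.793 ± 0.687 TPM from only 3, 0 and 5 counts. BRCA2 (7.56 TPM) faces ZAR1L, listed at 0, at 145 bases. How far other transcripts share the 3′ ends of these neighbours is not given here, so a low count is only what was counted.

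The 3 pairs in which the neighbour alone was expressed all held a repair gene listed at 0. PALB2 faces DCTN5 (11.9 ± 1.82 TPM) at 156 bases, XRCC6 faces DESI1 (113 ± 45.6 TPM) at 252 bases, and APEX1 faces OSGEP (4.05 ± 0.337 TPM) at 414 bases. Counts on these neighbours were recorded in every replicate, from 28 for OSGEP to 2410 for DESI1. The remaining pairs with an expressed gene paired FANCL, FANCD2 and ATRIP with long non-coding RNAs without a symbol (10.7 ± 1.76, 3.82 ± 1.37 and 1.67 ± 0.405 TPM), PMS2 with AIMP2 (0.752 ± 0.853 TPM), PARP2 with RPPH1 and BARD1 with SNHG31 (both listed at 0), and RAD51C with IGBP1C (0.0494 ± 0.0856 TPM).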

How the data were processed

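RNA of 3 replicates of HEK293T cells was made into 3′-end libraries (QuantSeq). The submitters' processing notes name Trimmomatic 0.38.0, HISAT2 2.2.1, featureCounts 2.2.1 and the build hg38. Settings for strand and for reads shared by several transcripts are not given in the sources used here. The authors deposited counts as unnormalised whole reads for each transcript. Beside them the authors deposited TPM, the count over the transcript length scaled to a sum of 1000000 in each library, which was checked by recomputing it.

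Transcript identifiers were joined without their version to GENCODE 44 (GRCh38): 223558 of 247541 matched, to 61193 genes. Counts and TPM were summed per gene. CPM are counts scaled to a library of 1000000. Log2 values were computed from the deposited TPM, with a pseudocount of 1 in the plot by replicate. Of the transcripts of the 53 genes, 83.9% had the same length in the deposited tables as in GENCODE 44, against 94.0% of all matched transcripts, so the annotation the authors counted on may be of another version. Shared ends are therefore approximate: BRCA2-201 and RAD51D-202 have no base of their own in GENCODE 44 but were counted. Scripts ran in Python 3.11.15 with numpy 2.4.6, pandas 2.3.3 and matplotlib 3.10.9, and were tested on simulated data.

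The replicates form 1 group, described as independent biological replicates in the study, so values are means ± SD (n = 3) with no test. Named were all 53 genes, with values per replicate for the 12 highest by TPM, the partners in complexes and genes with at most 3 counts in every replicate. For others, ranges or counts were given, with 5 named from the list of 82 other repair genes. The members and lists were chosen with earlier results of these data known. Alternatives changed the threshold, unit, mitochondrial share, scaling, motif rule, window and replicates. Other assays of the study were not analysed here.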

Additional observations from a re-analysis of the deposited data

How the results depend on the processing

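No paired analysis was possible because there is only 1 group. The number of expressed genes (33) was 19 with a threshold of 10 TPM, and 28 to 44 under the other thresholds. The number of high genes (11) was 23 where any TPM above 0 counted as expressed, 2 with 10 TPM, 7 where 1 TPM was asked of every replicate, and 5 with quartiles of protein-coding genes alone. The median of 2.03 TPM became 4.35 by CPM and 2.77 TPM without mitochondrial transcripts, and the sum of 1419 TPM became 3648 by CPM and 1936 TPM. The median CV of 25.2% was 14.0% by CPM, 16.5% without mitochondrial transcripts, 15.6% after median-of-ratios scaling and 9.43% to 24.4% with a replicate left out, the lowest without replicate 3. The number of genes with a putative iM- or G4-forming sequence (36) was 19 with 5 tracts and 11 in the narrow window. It was 46 with loops of 0 to 12 bases and 53 with tracts of at least 2. In that order these were 35.8%, 20.8%, 86.8% and 100% of the set, against 48.7%, 36%, 83.4% and 99.5% of all promoters. Ratios by CPM turned to 0.04 for FANCD2 over FANCI, -0.50 for RAD51B over RAD51C, -2.16 for RAD51B over RAD51D and -1.66 for RAD51C over RAD51D, since that scale omits transcript length. ATR over ATRIP ranged from -0.06 (without replicate 3) to 0.66. Of 81 alternatives in all, 58 kept the direction and stayed within 1.5 times the main value (counts of genes or pairs, and medians of the CV or SD) or within 1 SD of it (other values). Depth limits every gene with under about 10 counts, and the cause of the moves was not tested.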

Other observations

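Several repair genes had their counts on more than 1 transcript, which the levels per gene do not show. ATM had 49.4% of its counts on ATM-214, 21.2% on ATM-221 and 10.0% on ATM-223. RAD51B was spread over RAD51B-209 (25, 35 and 57 counts in replicates 1, 2 and 3), RAD51B-203 (31, 19 and 21 counts) and RAD51B-211 (18, 5 and 37 counts), so the transcript with most counts was not the same in every replicate. RAD50 had 131, 144 and 144 counts on its canonical transcript and 35, 26 and 66 on RAD50-204, a coding transcript of 1052 bases. FANCA had 172, 139 and 142 counts on its canonical transcript, and 63, 26 and 81 on FANCA-214, a retained intron of 578 bases. FANCC had 57.8% of its counts on FANCC-203, which lacks a defined coding sequence. FANCD2 had 58, 77 and 90 counts on FANCD2-201 and 30, 9 and 14 on FANCD2-204. Reads that 2 or more transcripts share may not be in these counts, so the shares describe the counted reads and not the RNA of the cell. These transcripts were chosen after their values were seen.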
